A study of Mus musculus with 2 samples.

Results

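The genes described here are EVI1 itself, whose mouse gene is Mecom, its close relative Prdm16, and 8 genes for chromatin proteins of the kind that EVI1 and PRDM16 work through: the corepressors Ctbp1 and Ctbp2, the histone methyltransferases Suv39h1 and Ehmt2, the histone deacetylases Hdac1 and Hdac2, and the DNA methyltransferases Dnmt3a and Dnmt3b. They are 10 of the 55487 gene IDs in the deposited count table. They were taken by symbol, from what is known of EVI1 but with earlier results of these data known. They were matched to the table by Ensembl ID on GRCm38. RNA was sequenced from 2 cultures of C57BL/6 mouse marrow, each a single library. Both cultures began with lineage-negative cells of femora, tibiae and pelvis, carried a pMYs-IG retrovirus that overexpresses a 3xHA-tagged EVI1, were sorted for GFP after 3 days and then formed colonies in MethoCult M3434 for about 3 weeks from 10000 cells. The cultures differed in the EVI1 form: wild type in the library called EVI1-WT, and in EVI1+18 a form that arises by aberrant splicing. A culture with an empty vector was not analysed here, so both libraries carry added EVI1 and neither shows its absence.

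EVI1 is a zinc finger transcription factor of haematopoietic stem cells, and its overexpression marks an aggressive class of myeloid leukaemia. It binds DNA through separate groups of zinc fingers and represses many of its targets. Repression is carried out by partner proteins: CtBP is a bridging corepressor that binds a short motif in EVI1, and HDAC1 and HDAC2, the H3K9 methyltransferases SUV39H1 and G9a (the product of Ehmt2), and the DNA methyltransferases DNMT3A and DNMT3B have each been reported in complexes with EVI1. PRDM16 is built on the same plan and is needed for the maintenance of blood stem cells. The comparison asks whether colonies that express the aberrantly spliced form differ in RNA for this machinery from colonies that express the wild-type form.

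The motifs through which EVI1 and PRDM16 hold CtBP are shown because they are the physical link between the first and second kinds of gene described here. In GENCODE M21 transcripts, both reading frames held the PLDLS motif and its variant PFDLT once each. In Mecom-212, PFDLT stood at residue 553 and PLDLS at residue 584 of 1051, both in exon 7 (GRCm38 chr3:29979843-29979881 and chr3:29979750-29979788, minus strand). In Prdm16-206, PFDLT stood at residue 773 and PLDLS at residue 803 of 1276, both in exon 9 (chr4:154340984-154341022 and chr4:154340894-154340932, minus strand). The lines give the coding strand 5′ to 3′ with the 5 codons of the motif in capitals and 12 bases on either side.
Mecom PFDLT: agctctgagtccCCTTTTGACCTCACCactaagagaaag
Mecom PLDLS: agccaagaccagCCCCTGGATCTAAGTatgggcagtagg
Prdm16 PFDLT: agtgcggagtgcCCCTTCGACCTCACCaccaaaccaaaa
Prdm16 PLDLS: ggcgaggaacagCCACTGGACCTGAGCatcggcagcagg
These are reference sequences and were not read from the libraries.

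The libraries held 20480447 counts (EVI1-WT) and 20981903 counts (EVI1+18). Levels are given as scaled CPM, which are CPM after TMM scaling of the library sizes, and each ratio of EVI1+18 over EVI1-WT carries a 95% exact counting interval. The interval covers counting error only: with 1 library per group there is no replicate check, and all differences below are between these libraries. A count of 0 allows up to 3 counts, or 0.150 scaled CPM for EVI1-WT and 0.14 for EVI1+18. The filter of 1 scaled CPM, reached in either library, kept 13183 genes, called tested genes. All 6 pan-haematopoietic markers, such as Ptprc (CD45), were well above this level, whereas 4 of 6 B-cell markers, among them Pax5, were at 0 in both libraries. The cultures differed in lineage: 10 erythroid markers summed to 1198 scaled CPM against 10144 (EVI1-WT first, as in all pairs of values below), and 9 mast cell and basophil markers to 4610 against 442.

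RNA for the corepressor machinery was present in both cultures. Ratios of the 8 chromatin genes ran from 0.905 to 1.65, with intervals above 1 for 6 of them. None of the 10 genes was 2-fold apart beyond counting error (0), where 10.1% of tested genes were; 9 of the 10 could be tested, since Prdm16 was not expressed above the filter. Of those 9, 7 had an interval wholly above 1, beside 33.4% of tested genes, and 1 wholly below 1, beside 32.8%. An interval clears 1 more easily the more counts a gene has, and these shares are not matched for count. The remaining gene, Ehmt2, was level. Their median log2 ratio was 0.31, and that of all tested genes was 0.01. Ctbp2, Dnmt3b and Suv39h1 had a ratio of at least 1.5, which makes 3 of 9, beside 14% of tested genes.

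**Figure D1:**
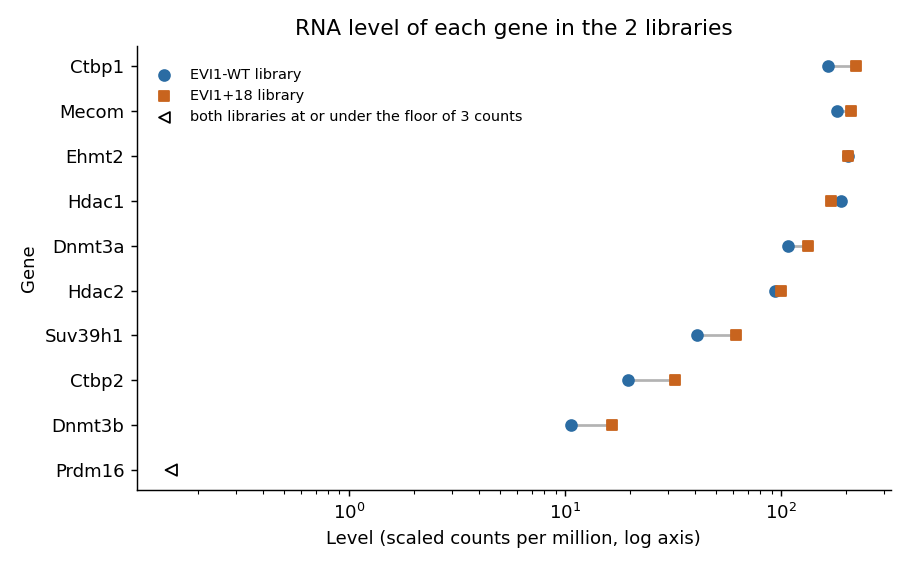
RNA level of each of the 10 genes in scaled CPM on a log axis, with a circle for the EVI1-WT library and a square for EVI1+18, 1 library each. The squares lie right of the circles for 7 genes, most clearly for Ctbp2, Dnmt3b and Suv39h1, and Prdm16 is drawn at the floor of 3 counts.

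**Figure D2:**
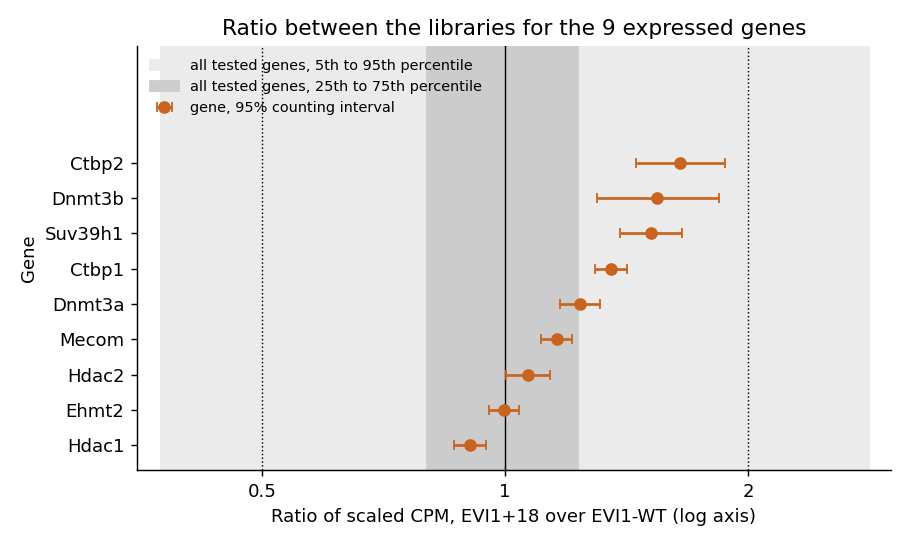
Ratio of scaled CPM in EVI1+18 over EVI1-WT with 95% counting intervals for the 9 tested genes; grey bands give the spread of all tested genes and dotted lines mark 2-fold. All intervals lie inside the dotted lines, from Hdac1 at 0.905 to Ctbp2 at 1.65.

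Mecom (ENSMUSG00000027684, chromosome 3, 29951296 to 30548008, minus strand) was counted 3612 times with the wild-type form and 4481 times with EVI1+18, or at 180 and 209 scaled CPM. Its ratio was 1.16 (1.11 to 1.21), and 62.8% of tested genes were at least as far from equal in either direction. This is a count at the mouse gene, in which vector and endogenous transcripts are not separated. The labels do not say from which species the vector's EVI1 comes, so part of the vector's reads may be missing from it, and it need not give the total EVI1 RNA. The protein-coding genes on either side were silent in the table: Egfem1, 260087 bases before Mecom, and Actrt3, 49065 bases after it, had 0 counts in both libraries. The antisense transcript Mecomos, which shares 81 exon bases with Mecom, also had 0 counts in both.

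Prdm16 (ENSMUSG00000039410, chromosome 4, 154316125 to 154636873, minus strand) was counted 0 times with the wild-type form and 2 times with EVI1+18. Both values are under the floor of 3 counts, so the relative of EVI1 was not detectable at this depth in either culture and no ratio is given. Its coding neighbours were as low, with 2 and 0 counts for Arhgef16 and 0 in both for Actrt2.

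Both CtBP genes stood higher in EVI1+18. Ctbp1 (ENSMUSG00000037373, chromosome 5, 33247723 to 33274994, minus strand), the main CtBP gene of these cultures, had 3288 and 4764 counts, or 164 and 222 scaled CPM. Its ratio was 1.35 (1.29 to 1.41), and 38.3% of tested genes were at least as far from equal. Ctbp2 (ENSMUSG00000030970, chromosome 7, 132987563 to 133124354, minus strand) encodes the second CtBP protein and, from another start, the synaptic protein RIBEYE. It had 390 and 688 counts, or 19.5 and 32.1 scaled CPM. Its ratio of 1.65 (1.45 to 1.87) was the highest of the 9, and 23.2% of tested genes were at least as far from equal. Ctbp1 was the more abundant of the pair in both libraries, at 36.7 and 49.6 scaled CPM per kilobase of exon against 3.13 and 5.16 for Ctbp2.

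The upstream sequences of this pair are shown because the 2 genes stood higher together while the starts listed for them in RefSeq differ in base composition. RefSeq sequences on GRCm38.p6 were found for 9 of the 10 genes, with 15 starts in all, and Hdac1 had no entry. The 250 bases before the Ctbp1 start held 31 CG pairs, more than 94.8% of the 32851 windows in the table. Those before the 2 listed Ctbp2 starts held 2 and 7, where the median window held 6. GENCODE M21 places the 5′ end of Ctbp2 further upstream, at 133124354, and that end has no window here. Which starts these cultures used was not tested. The lines run 5′ to 3′ on the gene's strand with CG pairs in capitals.
Ctbp1, chr5:33275005-33275254: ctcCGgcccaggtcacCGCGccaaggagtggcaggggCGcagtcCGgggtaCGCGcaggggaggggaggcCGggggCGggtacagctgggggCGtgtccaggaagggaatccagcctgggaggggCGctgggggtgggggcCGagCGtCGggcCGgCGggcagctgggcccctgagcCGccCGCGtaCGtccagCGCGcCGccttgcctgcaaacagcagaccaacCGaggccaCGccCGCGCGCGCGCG
Ctbp2 first start, chr7:133081861-133082110: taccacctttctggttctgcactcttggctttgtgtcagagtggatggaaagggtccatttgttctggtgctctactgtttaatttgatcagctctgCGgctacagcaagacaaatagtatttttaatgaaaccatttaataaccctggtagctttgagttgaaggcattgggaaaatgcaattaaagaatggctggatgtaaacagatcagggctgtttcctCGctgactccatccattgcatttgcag
Ctbp2 second start, chr7:133015248-133015497: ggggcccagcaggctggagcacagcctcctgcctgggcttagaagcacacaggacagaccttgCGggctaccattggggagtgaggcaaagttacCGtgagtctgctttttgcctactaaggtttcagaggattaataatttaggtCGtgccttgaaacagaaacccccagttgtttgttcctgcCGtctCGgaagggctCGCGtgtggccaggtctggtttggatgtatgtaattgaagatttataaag
The cores of the sequences bound by the first and second zinc finger groups of EVI1, AAGATA and GATGAG, were searched on both strands; they do not overlap as written. Neither occurred in any of the 15 windows (0), while 8.77% and 10.1% of all windows held them. The search says only that these letters are not in these windows.

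The H3K9 methyltransferases differed from each other. Suv39h1 (ENSMUSG00000039231, chromosome X, 8061171 to 8074760, minus strand), which trimethylates H3K9 in constitutive heterochromatin, had 811 and 1317 counts, or 40.5 and 61.4 scaled CPM. Its ratio was 1.52 (1.39 to 1.66), and 28.2% of tested genes were at least as far from equal. The antisense transcript Gm14820 shares 767 exon bases with Suv39h1, or 14.6% of its exons, and had 4 counts in each library. The strand setting is not known, so reads in the shared bases may be in neither count. Ehmt2 (ENSMUSG00000013787, chromosome 17, 34898469 to 34914052, plus strand) encodes G9a, the main H3K9 mono- and dimethyltransferase of active chromosome regions. It had 4091 and 4368 counts, or 204 scaled CPM in both libraries. Its ratio was 0.997 with an interval of 0.955 to 1.04, which holds 1. Under this scaling, counting error alone leaves room for at most a 1.05-fold difference between these libraries. Differences between replicate cultures are not covered. With libraries scaled to total counts its ratio was 1.04 (0.998 to 1.09), on the other side of equality.

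The class I deacetylases that form the core of the NuRD, SIN3 and CoREST complexes lay near equal. Hdac1 (ENSMUSG00000028800, chromosome 4, 129516104 to 129542713, minus strand) had 3761 and 3646 counts, or 188 and 170 scaled CPM. It was 1.11-fold lower in EVI1+18 (1.06 to 1.16), the only one of the 9 genes with an interval below 1. Hdac2 (ENSMUSG00000019777, chromosome 10, 36974544 to 37001889, plus strand) had 1876 and 2144 counts, or 93.7 and 99.9 scaled CPM, a ratio of 1.07 whose interval started just above 1 (1.002 to 1.14). Ratios as far from equal as these were held by 73.9% and 82.9% of tested genes. Of the 50-base words of Hdac1 transcripts, 31.7% also occur in its processed pseudogene Gm10093, which had 24 and 30 counts. Adding these to Hdac1 left the ratio at 0.907. The handling of multiply mapped reads is not known, so reads that match both may be in neither count, which the sum cannot show.

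The de novo DNA methyltransferases, which place methyl groups on previously unmethylated CG pairs, were both higher in EVI1+18. Dnmt3a (ENSMUSG00000020661, chromosome 12, 3806007 to 3914443, plus strand), a gene often mutated in myeloid leukaemia, had 2145 and 2846 counts, or 107 and 133 scaled CPM. Its ratio was 1.24 (1.17 to 1.31), with 50% of tested genes at least as far from equal. Dnmt3b (ENSMUSG00000027478, chromosome 2, 153649450 to 153687730, plus strand) was the least abundant tested gene of the set, with 213 and 352 counts, or 10.6 and 16.4 scaled CPM. Its ratio was 1.54 (1.3 to 1.84), with 27.2% of tested genes at least as far from equal. The rodent gene Dnmt3c, which contains 9.81% of the 50-base words of Dnmt3b, had 1 and 19 counts, and the sum of both genes had a ratio of 1.62 (1.36 to 1.92). Reads could be divided between these copies, so the Dnmt3b ratio is the more uncertain of the pair.

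Per length of exon, the order of the genes was almost the same in both cultures. In EVI1-WT, Hdac1 led at 54.5 scaled CPM per kilobase, followed by Ehmt2 at 37.2, Ctbp1 at 36.7 and Hdac2 at 20.9. In EVI1+18, Ctbp1 at 49.6 and Hdac1 at 49.3 stood side by side, with Ehmt2 at 37.1 and Hdac2 at 22.3. Counting intervals of neighbours in this order overlapped only for Ehmt2 and Ctbp1 in EVI1-WT and for Ctbp1 and Hdac1 in EVI1+18. Below them in both libraries came Mecom, at 14.5 and 16.8, then Suv39h1, Dnmt3a, Ctbp2 and Dnmt3b, and Prdm16 was last. The length used for Mecom, 12427 bases, covers all annotated exons, including ends that a coding insert in a vector need not carry, so its value per kilobase may not fit the vector's transcript. Merged exons can also overstate the length of genes with several transcript starts, such as Ctbp2 and Dnmt3a. Of the 50-base words of Hdac1, 35.5% also occur in other genes, against 0% for Ctbp1. The value of Hdac1 may therefore be too low if multiply mapped reads were not counted. The change of order was confined to the first 3 places, where Ctbp1 went from rank 3 to rank 1.

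The balance within pairs of related genes does not depend on how the libraries were scaled. For each pair, the odds ratio compares the count of the first gene relative to the second between the libraries. Ctbp1 had 8.43 counts for each count of Ctbp2 in EVI1-WT and 6.92 in EVI1+18, an odds ratio of 0.821 (0.718 to 0.939). Hdac1 had 2.005 and 1.70 counts for each of Hdac2, an odds ratio of 0.848 (0.785 to 0.917). Dnmt3a had 10.1 and 8.09 for each of Dnmt3b (odds ratio 0.803, 0.668 to 0.964). Such count ratios carry the genes' lengths, which cancel in the odds ratio. In these 3 pairs the member with fewer counts took a larger share in EVI1+18. The heterochromatin methyltransferases went the other way: Suv39h1 had 3.01 and 3.95 counts for each of its relative Suv39h2, an odds ratio of 1.31 (1.09 to 1.58). The G9a partner Ehmt1 kept its proportion to Ehmt2, at 0.265 and 0.266 counts for each, with an odds ratio of 1.0 (0.915 to 1.10).

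**Figure D3:**
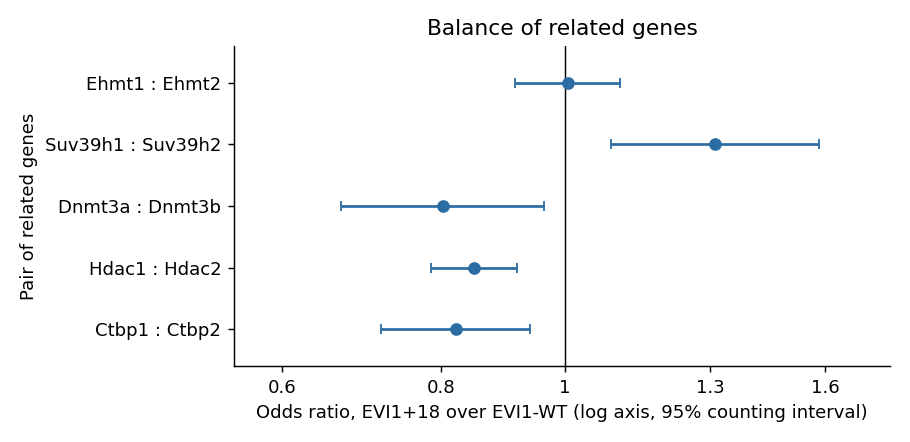
Odds ratio of each pair of related genes between the libraries with 95% counting intervals on a log axis; values under 1 mean that the first gene of the pair lost share in EVI1+18. The pairs of Ctbp, Hdac and Dnmt3 genes lie under 1, Suv39h1 and Suv39h2 above 1, and Ehmt1 and Ehmt2 at 1.

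Around these genes, 108 genes of 8 lists were examined (1 for relatives of EVI1, 6 for the corepressor machinery and 1 for genes linked to EVI1), of which 96 were tested. In all, 0 were 2-fold higher, beside 5.05% of tested genes, and 3 were 2-fold lower, beside 5.1%. Their median log2 ratio was 0.01, the same as that of all tested genes. Counts of intervals above and below 1 in the lists that follow stand beside 33.4% and 32.8% of tested genes. These shares are not matched for count, on which the width of an interval depends. Of the 13 other PRDM genes, 6 were tested and 5 had 0 counts in both libraries. The tumour suppressor relative Prdm2 was 1.38-fold lower in EVI1+18 (1.26 to 1.5), at 58.6 and 42.6 scaled CPM.

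Among 12 partners of the CtBP complex, 5 had an interval above 1 and 3 below 1, near the shares over tested genes, with a median log2 ratio of 0.04. Cdyl, a chromodomain protein that joins REST and CtBP to H3K9 methylation, stood farthest from equal at 16 and 30.8 scaled CPM. Its ratio was 1.92 (1.68 to 2.2), with an interval that holds 2. The demethylase Kdm1a (LSD1) and its scaffold Rcor1 (CoREST), the enzymatic core of the complex, had ratios of 1.12 and 0.909. The zinc finger partner Zfp217 was 1.25-fold lower (1.18 to 1.32).

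Of 15 further genes that write, erase or read H3K9 methylation, 5 had an interval above 1 and 5 below 1, and the median log2 ratio was 0.05. The heterochromatin protein HP1 gamma, encoded by Cbx3, had 197 and 253 scaled CPM, a ratio of 1.28 (1.23 to 1.34). The demethylase gene Kdm4c was 1.42-fold lower (1.28 to 1.57). Kdm4a and Kdm4b, named after their values were seen, were 1.10-fold and 1.27-fold lower, so all 3 KDM4 demethylases of the list lay below 1. The 3 HP1 genes, Cbx1, Cbx3 and Cbx5, lay above it at 1.09, 1.28 and 1.26. Cbx1 and Cbx5 were also named after their values were seen, as were the list's other demethylases. Of these, Kdm3a was 1.15-fold lower (1.05 to 1.25) and Kdm3b had a ratio of 1.04 (0.973 to 1.11).

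The other deacetylases, 14 of 16 tested, divided evenly, with 4 intervals above 1 and 4 below and a median log2 ratio of 0.06. Hdac10, a polyamine deacetylase, had a ratio of 1.56 (1.33 to 1.83), and the cytoplasmic tubulin deacetylase Hdac6 was 1.49-fold lower (1.3 to 1.71). Of 18 subunits of the NuRD and SIN3 complexes in which HDAC1 and HDAC2 work, 11 had an interval above 1 and 3 below (33.4% and 32.8% over tested genes), with a median log2 ratio of 0.10. The NuRD subunit Mta3 had 51.1 and 78.4 scaled CPM, a ratio of 1.53 (1.42 to 1.66), while the remodelling ATPase Chd3 was 1.51-fold lower (1.44 to 1.58). Its paralogue Chd4 was the more abundant of the pair per length, at 64.5 and 68.0 scaled CPM per kilobase against 27.2 and 18.0 for Chd3, and had a ratio of 1.05. Among 8 PRC2 subunits, 4 intervals lay above 1 and 3 below, with Jarid2 at 1.44 (1.31 to 1.59) and Phf19 1.39-fold lower (1.22 to 1.58).

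The DNA methylation list held the largest difference among the machinery, and it was on the side of removal. Tet1, which starts the removal of methyl groups by oxidizing them, had 106 and 22 counts, or 5.29 and 1.03 scaled CPM. It was 5.16-fold lower (3.24 to 8.58) and the only one of the 11 genes that was 2-fold apart. The noncoding gene Gm35507, which holds 0.423% of the 50-base words of Tet1, had 133 and 76 counts, and the sum of both genes had a ratio of 0.383 (0.299 to 0.486). Tet2, named after its values were seen like the next gene, was 1.62-fold lower (1.44 to 1.81). Tet3 was 1.18-fold lower (1.10 to 1.26). The maintenance methyltransferase Dnmt1 went the other way, at 277 and 345 scaled CPM and a ratio of 1.25 (1.20 to 1.29). All 3 TET genes thus had intervals below 1 and the 3 catalytic DNMT genes intervals above 1, beside 32.8% and 33.4% of tested genes. This grouping was made after the values were seen and does not cover the rest of the list. Uhrf1 and Mbd4, named in the same way, had intervals that hold 1, and Uhrf2 was 1.17-fold lower (1.08 to 1.27). The cofactor Dnmt3l, which has no catalytic activity and was also named after its values were seen, was 2.55-fold lower (1.74 to 3.81) on 93 and 39 counts, short of the call. The list as a whole had 2 intervals above 1 and 6 below, and a median log2 ratio of -0.15.

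**Figure D4:**
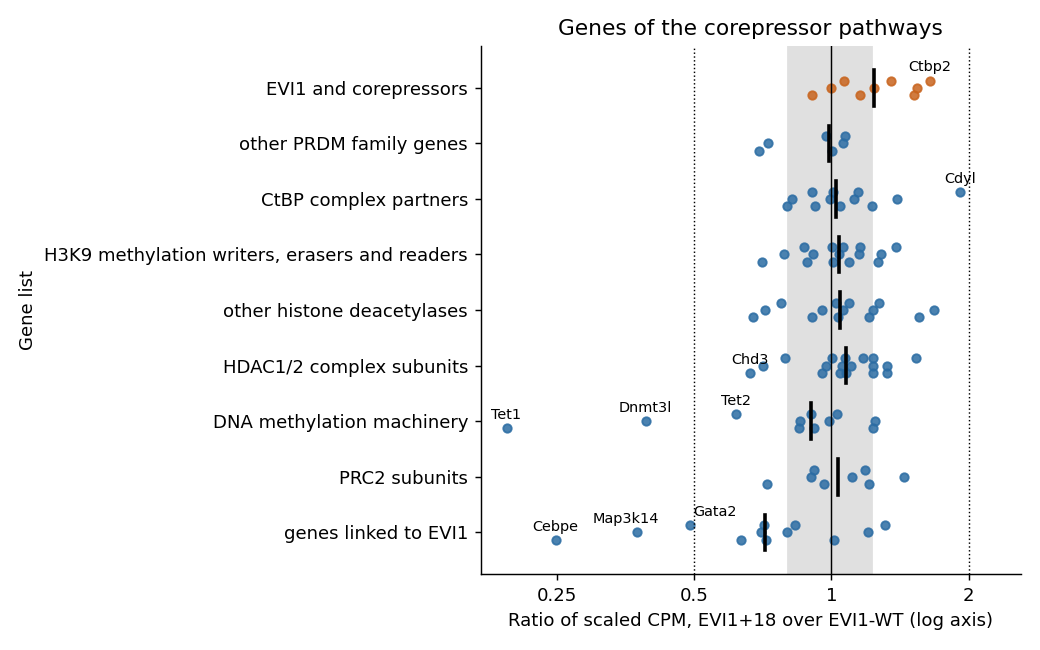
Ratio of scaled CPM in EVI1+18 over EVI1-WT on a log axis for each tested gene of the set (orange) and of the 8 surrounding lists (blue); black bars are list medians, the grey band is the interquartile range of all tested genes and dotted lines mark 2-fold. Most points lie in or near the band, and Tet1, Cebpe and Map3k14 lie far to the left.

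Genes that have been linked to EVI1 as targets or partners were mostly lower in EVI1+18. The list mixes both kinds, so its direction does not measure EVI1 activity. Of 15, 12 were tested, 9 had an interval below 1 and 2 above (32.8% and 33.4% over tested genes), and the median log2 ratio was -0.48. The granulocyte factor Cebpe was 4.03-fold lower (3.57 to 4.56), at 62.9 and 15.6 scaled CPM, and the NF-kappaB-inducing kinase Map3k14 2.67-fold lower (2.07 to 3.48). With total counts the ratio of Map3k14 was 0.391 (0.301 to 0.506), which no longer meets the call. The stem cell factor Gata2, a direct EVI1 target named after its values were seen, had 769 and 376 scaled CPM, just short of the call. Fos, which EVI1 is known to activate, had a ratio of 1.31 (1.19 to 1.46). The angiopoietin receptor gene Tek had 2 and 0 counts, below the floor in both cultures.

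Other markers moved between the same 2 libraries, where 5.05% of tested genes were 2-fold higher and 5.1% lower. Of 10 neutrophil markers, 6 were 2-fold lower and 0 higher in EVI1+18, with sums of 3504 and 1604 scaled CPM. Of 9 mast cell and basophil markers, 6 were 2-fold lower and 2 higher. Of 10 erythroid markers, 9 were 2-fold higher, and of 8 megakaryocyte markers 6, with Tubb1 at 0 counts in EVI1-WT. Of 9 stem and progenitor markers, 7 were tested and 5 of them were 2-fold higher, with sums of 22.7 and 102 scaled CPM. The part of these shifts in the ratios of the corepressor and EVI1-linked genes was not tested. In RNA from whole cultures, fewer cells of a type and less RNA per cell cannot be told apart.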

How the data were processed

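RNA sequencing of 2 libraries, 1 per EVI1 form, was analysed from 1 table of whole-number counts per Ensembl gene, which the authors deposited without normalization. The submitters' processing notes name GRCm38, the aligner HISAT2 2.2.1, SAMtools, and featureCounts of Subread beside edgeR. Not given in the sources used here were annotation release, strand setting and handling of multiply mapped reads. Reads of overlapping genes on opposite strands can therefore not be told apart. Each column was matched to its sample by name, and 0 columns were left over. Symbols, positions and exon lengths came from GENCODE M21 (55227 of 55487 IDs matched). The unmatched IDs held 0.0126% and 0.0171% of counts.

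Counts were scaled by TMM (edgeR 4.0.16, R 4.3.3). Ratios carry 95% exact (Clopper-Pearson) intervals from scipy 1.17.1. Log2 ratios, used for medians and for the share of genes as far from equal, have a prior count of 2. The call of 2-fold apart required an interval entirely above 2 or below 1/2 and, in either library, 1 scaled CPM or more. No test that rests on replicates can be run on 1 library per group, and no p-value is given. Counting error is all that the intervals cover, and PCR copies not marked by molecular identifiers are not separate molecules. The interval and call rule were tested on simulated counts that carry counting error only, so that test does not cover differences between cultures. The members, the lists and the rules were chosen with earlier results of these data known. Genes named are all 10 members, for each list the gene with the largest bound nearest to 1 in each direction, every list gene called, and the coding neighbours of Mecom and Prdm16; others are said to be named after their values were seen or are named as paralogues, core complex members or list genes under the floor. Alternatives were DESeq2 1.42.0 size factors, total counts, upper quartile, filters and a prior count of 0.5.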

Additional observations from a re-analysis of the deposited data

How the results depend on the processing

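No paired analysis was possible because each form has 1 library, and for the same reason no library could be left out. Under DESeq2 size factors, total counts, upper quartile scaling, no filter and a filter at 5 scaled CPM, the count of the 10 genes 2-fold apart remained 0, with 7 intervals above 1 and 1 below. With the filter at 5 scaled CPM, 431 genes were 2-fold higher in EVI1+18, against 666, since fewer genes pass. With total counts, 1 gene linked to EVI1 was 2-fold apart instead of 2: Map3k14 missed the call at a ratio of 0.391, against 0.374. The other 68 recomputed counts of genes lay within 1.5 times of the reported value. Scaling to total counts took the ratios of Mecom to 1.21, Ctbp1 to 1.41 and Ehmt2 to 1.04, outside their counting intervals. It raised the median log2 ratio of all tested genes from 0.01 to 0.07. Of the genes named, only Ehmt2 changed sides of 1 among the scalings. Ranked by scaled CPM without division by length, Mecom went from rank 5 in both libraries to ranks 3 and 2. In that ranking Ctbp1 stood at ranks 4 and 1, Ehmt2 at 1 and 3, and Hdac1 at 2 and 4. The balance of gene pairs does not depend on the scaling and was not recomputed. Depth limits Prdm16 and Tek.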
